A study of Homo sapiens with 24 samples.

Results

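The 10 genes described here are needed for meiosis: SYCP1, SYCP2, SYCP3, STAG3, REC8, SMC1B, DMC1, SPO11, HORMAD1 and MEI1. They were chosen by gene symbol and are 10 of the 57820 genes counted in each library. Each symbol matched 1 gene. RNA was sequenced from the human osteosarcoma line U2OS and from AID-DIvA cells, a U2OS derivative that carries the restriction enzyme AsiSI under control of hydroxytamoxifen, in WT and ID3-KO form. Mocetinostat is an inhibitor of class I histone deacetylases, and ID3 is a protein without a DNA-binding domain that blocks basic helix-loop-helix transcription factors. The study asked how cells lacking ID3 respond to the inhibitor and recover from it.

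The 8 groups held 3 biological replicates each. AID-DIvA WT and AID-DIvA ID3-KO cells were either untreated or exposed to mocetinostat for 24 h and then kept without it for 24 h. U2OS WT and U2OS ID3-KO cells were either untreated or exposed to mocetinostat. The U2OS cells were taken to have been collected after 24 h of drug, before recovery, which was inferred from the study's methods and not from the labels. Stage of recovery and cell line therefore cannot be told apart, and the library names of the U2OS samples also carry the word DivA. For the AID-DIvA libraries the treatment given in the labels is the opposite of that in the titles, which were followed, so that every AID-DIvA treatment direction rests on the titles. The dose used for RNA-seq, and whether each ID3-KO line was 1 clone, were not given in the sources used here, so genotype and clone cannot be told apart.

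Meiosis is the division by which germ cells make gametes. Chromosomes are built on axes of meiotic cohesin (REC8, STAG3 and SMC1B) and axis proteins (SYCP2, SYCP3 and HORMAD1). SPO11, with the help of MEI1, cuts the DNA, DMC1 carries the broken ends into the partner chromosome, and SYCP1 joins the paired axes like the teeth of a zip. In somatic cells most of these genes are kept silent, in part by the Polycomb complex PRC1.6, and some are read in tumours.

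Total counts per library lay between 37878751 and 76906266. At these depths the limit that a count of 0 allows, 3 counts, corresponds to between 0.0390 and 0.0792 CPM (counts scaled to the library total) per library. That limit covers counting error only. The U2OS WT untreated replicate 1 stood apart from the other libraries of its group. The chi-square per gene was 137 and 118 against those libraries, while every other pair of replicates in the series lay between 3.23 and 35.4. The U2OS WT values of the members are given with and without it where leaving it out moved a call, a test past 0.05 or a value by over 0.1 on the log2 scale. ID3 itself was still counted in ID3-KO cells, at 34.7 ± 3.61 CPM (SD, n = 3) in untreated AID-DIvA ID3-KO against 50.4 ± 2.20 in AID-DIvA WT cells, and at 30.6 ± 1.53 in untreated U2OS ID3-KO against 62.3 ± 15.9 in U2OS WT cells. Counts of the gene do not show what its transcripts encode.

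The cells read some, but not all, of the osteoblast lineage genes that the label osteosarcoma implies. Summed over 8 markers, each library held at least 1732 CPM, of which COL1A1 and SPARC, genes of bone matrix, made up nearly all, whereas BGLAP and SP7, markers of mature osteoblasts, stayed below 0.5 CPM in every group mean. Germ cell markers were close to absent. Over 6 of them (DDX4, DAZL, MAEL, TDRD1, PIWIL1 and TEX101) the sum ran from 0.0404 to 0.360 CPM in the untreated libraries and from 0.0752 to 0.272 CPM in the AID-DIvA libraries after recovery. It ran from 0.947 to 2.02 CPM in the mocetinostat-treated U2OS libraries, where PIWIL1 made up most of it. DAZL was at 0 in 7 of the 8 groups. Of the 8 osteoblast markers, RUNX2 was called lower in treated U2OS WT cells (-1.53 ± 0.12 on the log2 scale) and fell by 0.97 ± 0.06 in treated U2OS ID3-KO cells, short of a call, and IBSP in both U2OS genotypes and COL1A2 in U2OS ID3-KO cells were called higher at averages below 0.5 CPM. In the AID-DIvA treatment comparisons none of the 8 was called. Between genotypes 2 of the 8 were called lower in ID3-KO cells in both lines, untreated and treated. Of all tested genes 2.3% were called lower in untreated AID-DIvA and 2.84% in untreated U2OS ID3-KO cells. In treated cells 4.76% (AID-DIvA) and 3.49% (U2OS) were called in either direction.

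The libraries keep the strand of the RNA, and for some of these genes most strand-specific counts lay on the other strand. The main values count a fragment from either strand but leave out those that fall on 2 genes. The strand shares therefore do not describe the main values exactly: SYCP3 had 137 counts in the main values. Of the strand-specific counts summed over the 24 libraries, 98.9% for SMC1B (173 against 2), 97.2% for SYCP3 (2674 against 77) and 91.4% for STAG3 (11949 against 1130) lay on the strand opposite to the gene. For REC8 the share was 21.2% and for MEI1 11.8%, whereas it was 0.358% for SYCP2, 0.0376% for DMC1 and 0.0255% for HORMAD1. Overlaps were taken from a GENCODE annotation of the same genome, of another release than the count files. There STAG3 shares 1276 exonic bases with a gene on the opposite strand, listed as GATS in the count files, and 462 with a protein-coding gene on its own strand (ENSG00000292277). SYCP3 shares 566 bases with CHPT1 and REC8 shares 39 bases with IPO4. SMC1B and MEI1 share no exonic bases with an annotated gene on the other strand. The values of STAG3, REC8 and MEI1 are therefore also given for the gene's own strand, called the sense strand below. STAG3 also has near-identical partial copies on chromosome 7 (STAG3L1 to STAG3L5P), so that its counts are uncertain beyond the question of strand.

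**Figure D1:**
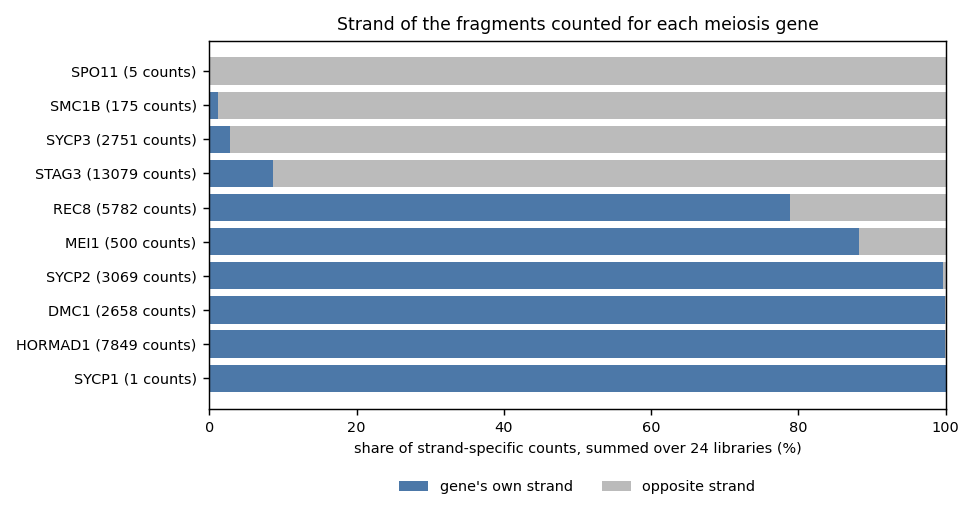
Share of strand-specific counts (x axis, %) on the gene's own strand (blue) and on the opposite strand (grey) for each of the 10 meiosis genes, summed over 24 libraries, with the summed counts in brackets. SMC1B, SYCP3 and STAG3 were counted almost wholly on the opposite strand (98.9%, 97.2% and 91.4%), while SYCP2, DMC1 and HORMAD1 were counted on their own strand.

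The 10 genes are described in 2 parts, the first being those at or near the detection limit on their own strand. SYCP1, the bridge of the synaptonemal complex, was read once in all 24 libraries. SPO11, the enzyme that cuts DNA in meiosis, had 5 counts in 24 libraries, all on the opposite strand, and 0 on its own strand, which allows a level of up to 0.00217 CPM over the series. SMC1B, the meiotic form of the cohesin subunit SMC1, had 2 sense counts in the series, both in U2OS ID3-KO mocetinostat replicate 3. SYCP3, the partner of SYCP2 in the lateral element, had between 0 and 10 sense counts per library. These 4 genes were at or near the detection limit on their own strand, and 3 of them were not tested in any comparison. SMC1B passed the filter on low counts in U2OS cells alone, where treated genotypes or all 4 groups were compared, and with opposite-strand counts. Treated ID3-KO and WT cells then differed by 0.37 ± 0.43 on the log2 scale (SE, adjusted p = 0.542).

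The other 6 genes were read on their own strand in every library. Per kilobase of exon, over all 24 libraries and both strands, HORMAD1 averaged 2.39 CPM, REC8 0.990, STAG3 0.637, DMC1 0.624, SYCP2 0.337 and MEI1 0.0655. On this scale MEI1 lay near SMC1B (0.0290) and SYCP3 (0.0257), so the parts are not separated by a gap in level. STAG3 dropped to 0.0916 CPM per kilobase when the sense strand alone was counted, below SYCP2 and above MEI1. In untreated AID-DIvA WT cells the order on the same scale was HORMAD1 (2.98 ± 0.0753, SD, n = 3), REC8 (1.02 ± 0.0974), DMC1 (0.914 ± 0.0242), STAG3 (0.589 ± 0.0230) and SYCP2 (0.425 ± 0.0141). REC8 and DMC1, neighbours in that order, lay about 1 SD of REC8 apart, and the order of SMC1B (0.0350 ± 0.00844), MEI1 (0.0313 ± 0.00814) and SYCP3 (0.0267 ± 0.00893) could not be told from their spread.

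SYCP2 (ENSG00000196074.8, hg19 chr20:58438618-58508710, minus strand) encodes an axis protein of the lateral element. The study named this gene on the AID-DIvA libraries, so its change in those libraries is given as a description, with no test. Its level was 2.79, 2.65 and 2.82 CPM in untreated AID-DIvA WT cells and 1.05, 1.06 and 0.901 CPM after mocetinostat and recovery. In AID-DIvA ID3-KO cells it was 4.62, 3.85 and 4.0 CPM untreated and 0.484, 1.06 and 1.32 CPM after treatment. In both genotypes every treated library lay below every untreated one. In bulk RNA fewer cells reading a gene and less RNA per cell cannot be told apart. The log2 fold change was -1.45 in WT and -2.06 in ID3-KO cells. ID3-KO replicate 1 after recovery was the lowest library of the series for this gene, and without it the ID3-KO value was -1.80.

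Before recovery SYCP2 was called in neither genotype. It was read at 1.08, 2.04 and 2.16 CPM in untreated and 1.54, 1.29 and 1.40 CPM in treated U2OS WT cells, groups that overlap because of untreated replicate 1. The difference was -0.30 ± 0.26 on the log2 scale (adjusted p = 0.370), and without that replicate it was -0.56 ± 0.17 (adjusted p = 0.00376). In U2OS ID3-KO cells it was 2.95, 2.65 and 2.39 CPM untreated and 2.91, 2.68 and 2.56 CPM treated, a difference of 0.04 ± 0.12 (adjusted p = 0.812). All adjusted p-values are from the quasi-likelihood test of edgeR with Benjamini-Hochberg adjustment over all genes tested, and errors of log2 values are standard errors.

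SYCP2 also differed between the genotypes. Untreated AID-DIvA ID3-KO cells held more of it than untreated WT cells (a log2 difference of 0.57, given without a test since these libraries were used to choose the gene), with no overlap between 3.85 and 4.62 CPM in the former and 2.65 to 2.82 in the latter. Treated U2OS ID3-KO cells held more than treated U2OS WT cells by 0.94 ± 0.14 (adjusted p = 3.37e-06). Without U2OS WT mocetinostat replicate 1 that difference was 1.01. In untreated U2OS cells the difference was 0.60 ± 0.25 (adjusted p = 0.166), and 0.34 ± 0.15 (adjusted p = 0.0583) without WT replicate 1. After recovery the AID-DIvA genotypes were at 0.955 ± 0.428 CPM (ID3-KO, SD, n = 3) and 1.0 ± 0.0892 CPM (WT), a log2 difference of -0.03. The drop in AID-DIvA cells differed between the genotypes by -0.60, given without a test for the same reason as the drop itself.

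The genes whose group means followed SYCP2 most closely, by Pearson's r of log2 CPM over the 8 groups, were CRYZ (0.989), TUBB4B (0.968), BANK1 (0.966), ZNF100 (0.965) and ZNF441 (0.962), out of 15592 genes compared. The 8 points share libraries, depth and normalization, and no test was made.

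The start region of SYCP2 was rich in G and C. The sequences of the 4 members that were called in a treatment or genotype comparison, on either count, and had an entry are shown, with short words marked that are known to be bound by E2F6 and by MAX and MGA, which belong to PRC1.6, and by the basic helix-loop-helix factors that ID3 blocks. RefSeq promoter windows (GRCh38.p14, 250 bases before to 50 after the start) matched 9 of the 10 members, and HORMAD1 had no entry. Capitals mark the words GCGGGA (E2F core), CACGTG (E-box of MAX and MGA), CAGCTG and CAGGTG (E-boxes of E proteins), searched on both strands, so that TCCCGC and CACCTG are the reverse of GCGGGA and CAGGTG. TGACGTCA, the cyclic AMP response element, was searched too. The windows of SYCP2 (chr20:59933588-59933887, minus strand), DMC1 (chr22:38570134-38570433, minus strand), MEI1 (chr22:41699253-41699552, plus strand) and the first of a pair for STAG3 (chr7:100177474-100177773, plus strand) read as follows.
SYCP2: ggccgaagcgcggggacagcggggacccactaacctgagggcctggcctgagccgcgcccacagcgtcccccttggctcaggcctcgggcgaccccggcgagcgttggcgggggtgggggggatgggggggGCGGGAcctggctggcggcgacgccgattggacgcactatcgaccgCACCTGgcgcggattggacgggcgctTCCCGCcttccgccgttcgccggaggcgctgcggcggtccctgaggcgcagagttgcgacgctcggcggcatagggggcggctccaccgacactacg
DMC1: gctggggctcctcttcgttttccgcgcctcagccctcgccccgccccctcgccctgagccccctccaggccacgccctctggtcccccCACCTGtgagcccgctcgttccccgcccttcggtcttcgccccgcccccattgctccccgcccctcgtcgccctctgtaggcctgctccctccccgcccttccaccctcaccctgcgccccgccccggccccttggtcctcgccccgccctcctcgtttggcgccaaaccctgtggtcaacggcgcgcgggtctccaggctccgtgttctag
MEI1: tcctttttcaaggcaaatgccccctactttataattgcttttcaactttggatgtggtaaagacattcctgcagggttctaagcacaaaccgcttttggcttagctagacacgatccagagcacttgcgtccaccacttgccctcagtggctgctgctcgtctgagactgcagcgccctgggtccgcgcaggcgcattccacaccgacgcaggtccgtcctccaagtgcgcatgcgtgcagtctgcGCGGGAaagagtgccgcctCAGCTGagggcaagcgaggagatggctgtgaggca
STAG3: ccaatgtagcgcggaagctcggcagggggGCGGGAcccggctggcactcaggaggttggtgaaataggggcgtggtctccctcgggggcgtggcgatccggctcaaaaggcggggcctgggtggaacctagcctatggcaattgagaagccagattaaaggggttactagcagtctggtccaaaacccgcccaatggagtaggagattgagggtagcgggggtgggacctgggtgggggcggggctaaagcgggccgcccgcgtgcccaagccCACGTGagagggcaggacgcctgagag

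SYCP2 held GCGGGA at 2 places and CAGGTG at 1, in a window that was 75.3% G and C with 41 CG pairs, against medians of 58.7% and 14 over 35116 promoters. GCGGGA was found in 8 of the 9 members, against 26.9% of all promoters, and CAGGTG in 5 of 9, against 20.6%. CACGTG was found in STAG3 alone (7.26% of all promoters), CAGCTG in MEI1 alone (17.9%), and TGACGTCA in 0 of 9 (1.85%). DMC1 was the member without GCGGGA. The words are matches of letters and were not related to any change in expression by a test.

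DMC1 (ENSG00000100206.5, hg19 chr22:38914954-38966291, minus strand), a recombinase of meiosis, was lower in ID3-KO than in WT cells in all 4 settings and fell with mocetinostat in 3 of the 4 treatment comparisons. Untreated AID-DIvA cells held 2.77, 2.83 and 2.69 CPM in WT and 1.27, 1.49 and 1.28 CPM in ID3-KO form. Untreated U2OS cells held 3.3, 3.55 and 3.45 CPM in WT and 1.69, 1.43 and 1.64 CPM in ID3-KO form. WT and ID3-KO libraries did not overlap in either line. The difference was -1.05 ± 0.12 in AID-DIvA cells (adjusted p = 3.47e-06) and -1.12 ± 0.13 in U2OS cells (adjusted p = 0.00129). Without AID-DIvA ID3-KO untreated replicate 1 the former was -0.99 (adjusted p = 5.56e-05), and without U2OS WT untreated replicate 1 the latter was -1.15 (adjusted p = 1.49e-08).

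DMC1 was called in both of these comparisons, where a call is an adjusted p below 0.05 with a change over 1 on the log2 scale. It was the only member called: 1 of 10 in each, with 6 tested, against a background of 2.3% of tested genes called lower in untreated AID-DIvA and 2.84% in untreated U2OS cells. In the treated cells 0 of 10 members were called (6 tested in AID-DIvA and 7 in U2OS cells), against 4.76% (AID-DIvA, either direction) and 3.49% (U2OS). DMC1 was still lower in ID3-KO cells, by -0.93 ± 0.20 (adjusted p = 0.00747) and -0.47 ± 0.15 (adjusted p = 0.0126; up to 0.0628 over the alternatives). Leaving out AID-DIvA ID3-KO replicate 1 after recovery, the AID-DIvA difference was -1.15 (adjusted p = 0.000710) and DMC1 was then called. None of the other members but SYCP2 and MEI1 differed between the genotypes at an adjusted p below 0.05. MEI1 was lower in treated U2OS ID3-KO than WT cells by -0.64 ± 0.24 (adjusted p = 0.0381; up to 0.261 over the alternatives).

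With mocetinostat and recovery DMC1 went to 1.67, 1.38 and 1.62 CPM in AID-DIvA WT cells (-0.81 ± 0.12, adjusted p = 0.000115) and to 1.17, 0.679 and 0.737 CPM in AID-DIvA ID3-KO cells (-0.71 ± 0.20, adjusted p = 0.0166). With 1 library left out the ID3-KO change lay between -0.92 and -0.55, at an adjusted p of up to 0.0888. Before recovery it went to 2.03, 2.04 and 2.08 CPM in U2OS WT cells (-0.73 ± 0.11, adjusted p = 0.0012; -0.76 without untreated replicate 1). In U2OS ID3-KO cells it stood at 1.31, 1.65 and 1.5 CPM, overlapping the untreated libraries (-0.09 ± 0.16, adjusted p = 0.634). A difference between the genotypes in this response was not shown by the test of the interaction in U2OS cells (0.65 ± 0.17, adjusted p = 0.0799), but passed 0.05 without U2OS WT untreated replicate 1 (0.67 ± 0.20, adjusted p = 0.0276). The interaction in AID-DIvA cells was 0.11 ± 0.23 (adjusted p = 0.890). In both interactions 0 of 10 members passed (6 tested in AID-DIvA and 7 in U2OS cells), against 1.21% of tested genes in AID-DIvA and 2.15% in U2OS cells.

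**Figure D2:**
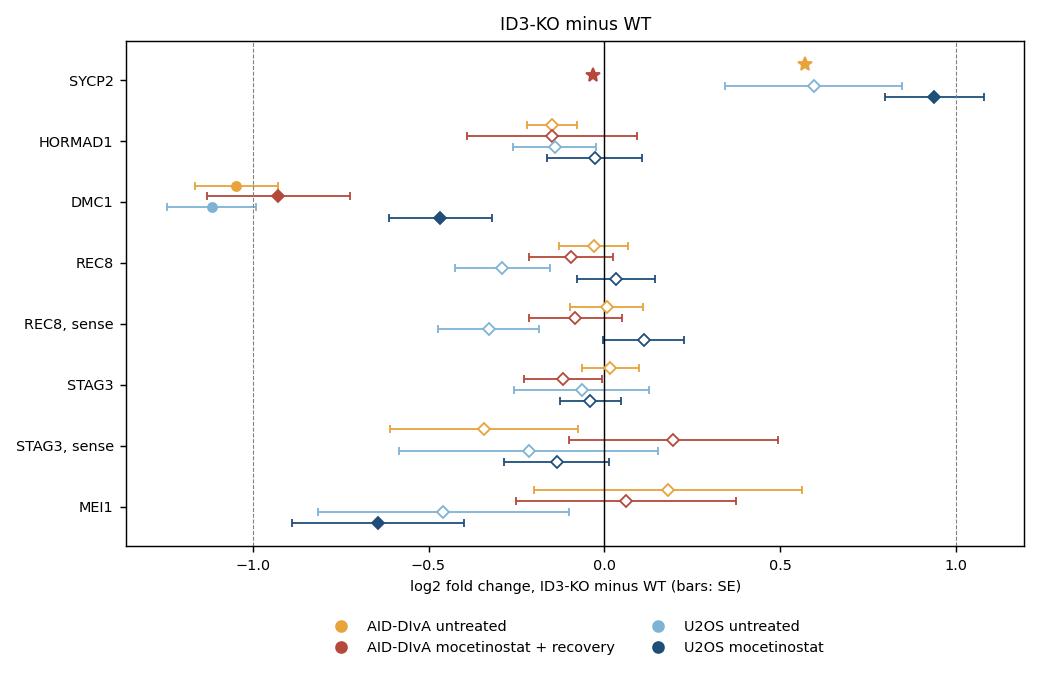
Difference between ID3-KO and WT cells (x axis, log2 fold change, bars are SE) for 6 meiosis genes in the 4 settings, counted from either strand or, where stated, from the sense strand. Filled symbols have an adjusted p below 0.05, circles are called, stars mark the AID-DIvA values of SYCP2, which were not tested, and dashed lines mark a log2 fold change of 1 in either direction. DMC1 lies below 0 in all 4 settings, while SYCP2 lies at 0.57 to 0.94 in 3 settings and at -0.03 in treated AID-DIvA cells.

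HORMAD1 (ENSG00000143452.11, hg19 chr1:150670536-150693364, minus strand), an axis protein that also watches over pairing, was the member with the highest level per kilobase. It fell before recovery, while after recovery the difference did not pass the test. In U2OS WT cells it went from 5.81, 5.59 and 5.95 CPM to 3.74, 2.84 and 2.61 CPM (-0.91 ± 0.15, adjusted p = 0.00176; -1.08 without the treated replicate 1). In U2OS ID3-KO cells it went from 4.67, 6.02 and 5.04 CPM to 2.96, 3.47 and 2.62 CPM (-0.80 ± 0.12, adjusted p = 2.82e-06). Treated and untreated libraries did not overlap in either genotype.

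After recovery HORMAD1 stood at 8.96, 7.76 and 7.15 CPM in AID-DIvA WT cells, against 6.95, 7.25 and 7.27 CPM untreated (0.16 ± 0.09, adjusted p = 0.155). In AID-DIvA ID3-KO cells it stood at 4.16, 8.38 and 8.82 CPM, against 6.39, 6.67 and 6.65 CPM untreated (0.15 ± 0.22, adjusted p = 0.630). Replicate 1 lay below the untreated libraries and the other 2 lay above them. Without replicate 1 the difference was 0.41 ± 0.08 (adjusted p = 0.00162), and without replicate 3 it was -0.01.

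REC8 (ENSG00000100918.8, hg19 chr14:24641062-24649463, plus strand), the meiotic kleisin of cohesin, was lower after mocetinostat in all 4 comparisons. Its sense-strand level in U2OS WT cells went from 6.33, 4.61 and 4.55 CPM to 2.72, 2.76 and 2.65 CPM (-0.91 ± 0.15, adjusted p = 0.00173; -0.76 without untreated replicate 1). In U2OS ID3-KO cells it went from 4.11, 3.95 and 4.21 CPM to 2.84, 2.73 and 3.15 CPM (-0.49 ± 0.11, adjusted p = 0.000289). In AID-DIvA cells it went from 3.62, 3.21 and 2.99 to 2.20, 2.65 and 2.24 CPM in WT (-0.46 ± 0.12, adjusted p = 0.00683) and from 3.20, 3.25 and 3.55 to 2.42, 2.05 and 2.32 CPM in ID3-KO form (-0.57 ± 0.11, adjusted p = 0.00257). No treated library reached an untreated one. From either strand the changes were -0.86 (-0.72 without untreated replicate 1), -0.55, -0.29 and -0.37 in the same order, and of these the AID-DIvA values missed an adjusted p of 0.05 under at least 1 alternative (up to 0.15 in WT and 0.0986 in ID3-KO cells). None was past 1 on the log2 scale.

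**Figure D3:**
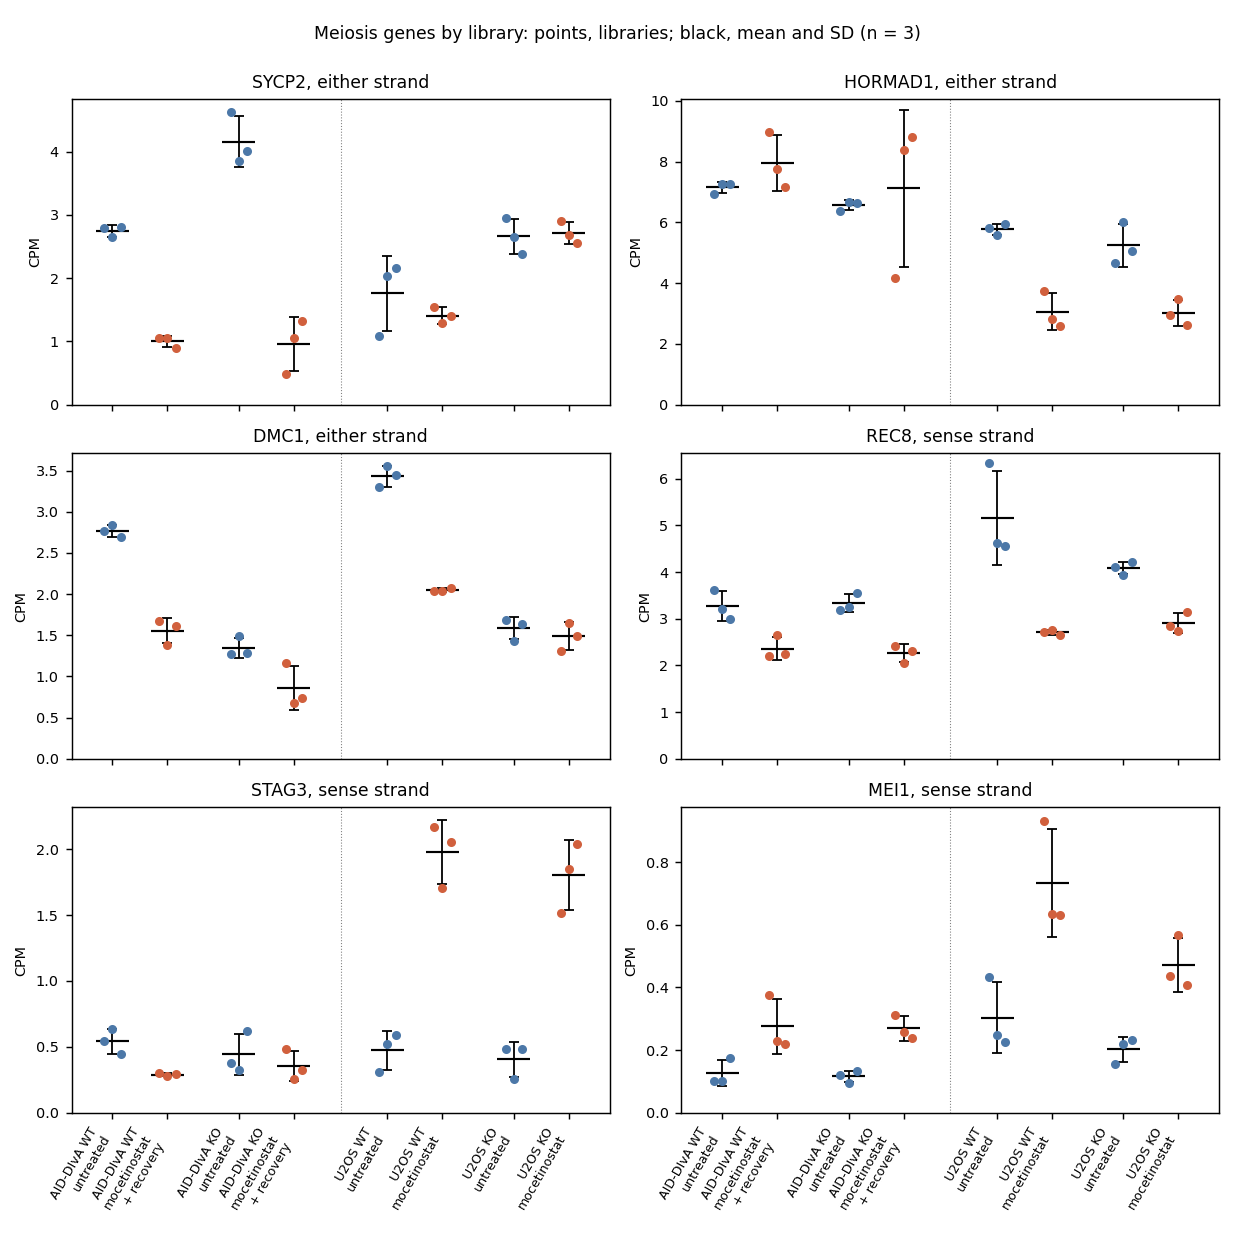
CPM (y axis) of 6 meiosis genes in each of 24 libraries, in 8 groups (x axis), with untreated libraries in blue, mocetinostat-treated libraries in red and the mean and SD (n = 3) in black. SYCP2 is lower in treated AID-DIvA cells and HORMAD1 in treated U2OS cells, while sense-strand STAG3 rises to between 1.51 and 2.17 CPM in treated U2OS cells.

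STAG3 (ENSG00000066923.13, hg19 chr7:99775186-99819111, plus strand), the meiotic STAG subunit of cohesin, gave a different picture on each strand. On the sense strand it rose in U2OS WT cells from 0.310, 0.523 and 0.588 CPM to 2.17, 1.71 and 2.05 CPM (2.09 ± 0.25, adjusted p = 0.000326; 1.85 without untreated replicate 1). In U2OS ID3-KO cells it rose from 0.485, 0.253 and 0.481 CPM to 1.51, 1.85 and 2.04 CPM (2.16 ± 0.22, adjusted p = 9.48e-09). The libraries did not overlap in either genotype. The opposite-strand level was higher throughout, at 8.78 ± 1.66 CPM (SD, n = 3) untreated and 10.3 ± 0.697 treated in U2OS WT cells, and 8.88 ± 0.616 and 10.3 ± 0.395 in U2OS ID3-KO cells. GATS, the overlapping gene, stood at 5.90 ± 1.38 and 6.97 ± 0.286 CPM in WT and 5.74 ± 0.337 and 6.94 ± 0.509 CPM in ID3-KO cells, and its part in the STAG3 counts was not tested. The count files list more than 1 gene named GATS over this span, and these values are of a single one. Counted from either strand, the change of STAG3 was 0.35 ± 0.18 (adjusted p = 0.151; 0.16 without untreated replicate 1) and 0.37 ± 0.09 (adjusted p = 0.00106; up to 0.0549 over the alternatives).

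After recovery sense-strand STAG3 was not raised. In AID-DIvA WT cells it went from 0.545, 0.636 and 0.443 CPM to 0.301, 0.276 and 0.294 CPM (-0.88 ± 0.25, adjusted p = 0.0107; adjusted p = 0.0886 with DESeq2). In AID-DIvA ID3-KO cells it was 0.378, 0.328 and 0.623 CPM untreated and 0.484, 0.257 and 0.325 CPM treated (-0.36 ± 0.33, adjusted p = 0.407). Leaving out AID-DIvA WT untreated replicate 3, the WT value was -1.02. Between 12 and 37 sense counts per library stood behind these values.

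MEI1 (ENSG00000167077.8, hg19 chr22:42095503-42195460, plus strand), which is needed for SPO11 to cut, was low and rose with mocetinostat in U2OS cells. Counted from either strand in U2OS cells, it went from 0.433, 0.275 and 0.246 CPM to 1.01, 0.714 and 0.658 CPM in WT (1.31 ± 0.31, adjusted p = 0.00961) and from 0.175, 0.253 and 0.267 CPM to 0.504, 0.587 and 0.439 CPM in ID3-KO form (1.12 ± 0.31, adjusted p = 0.00260). Both groups rested on few counts, 9 to 28 per untreated and 29 to 66 per treated library. Without U2OS WT untreated replicate 1 the WT value was 1.6, and without U2OS ID3-KO untreated replicate 1 the ID3-KO value was 0.96 and no longer called.

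After recovery MEI1 from either strand differed by 0.81 ± 0.36 in AID-DIvA WT (adjusted p = 0.0809) and 0.68 ± 0.32 in AID-DIvA ID3-KO cells (adjusted p = 0.121). On the sense strand it was 0.101, 0.103 and 0.174 CPM untreated and 0.376, 0.230 and 0.221 CPM treated in WT cells (1.10 ± 0.38, adjusted p = 0.0278). In ID3-KO cells it was 0.120, 0.0957 and 0.132 CPM untreated and 0.313, 0.257 and 0.238 CPM treated (1.2 ± 0.31, adjusted p = 0.0125). The sense-strand libraries did not overlap, but only 5 to 11 counts per untreated library stood behind them, DESeq2 gave adjusted p = 0.152 and 0.0944, and the WT call was lost without any 1 of 3 libraries (log2 fold changes 0.81 to 0.99, adjusted p = 0.0875 to 0.142). The ID3-KO call was lost without untreated replicate 2 (1.06, adjusted p = 0.0603).

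**Figure D4:**
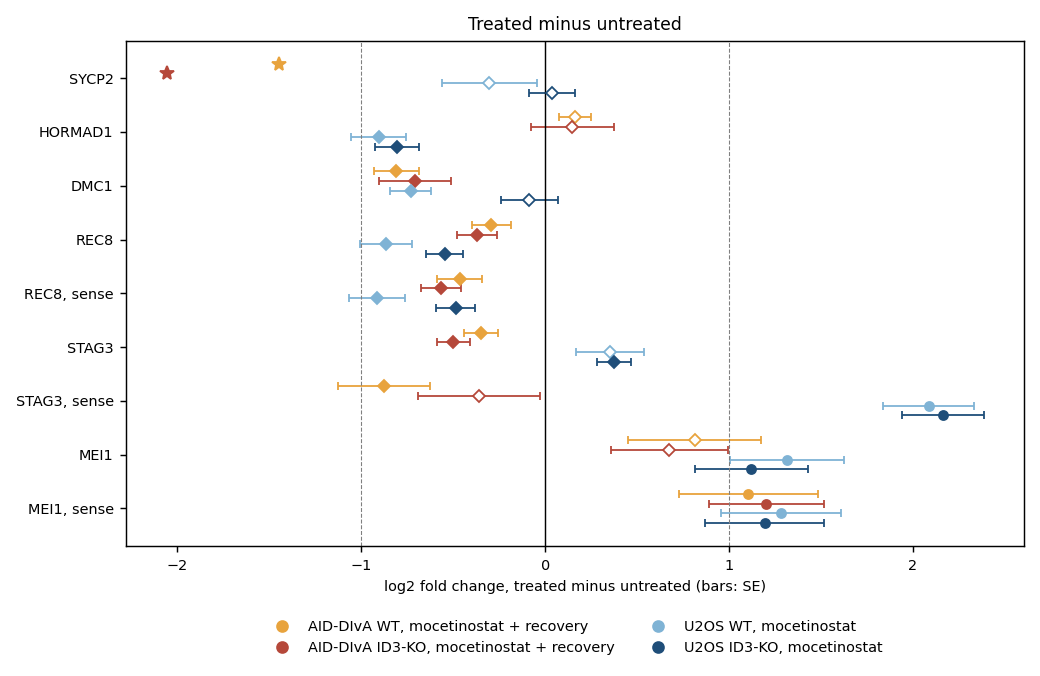
Difference between treated and untreated cells (x axis, log2 fold change, bars are SE) for 6 meiosis genes in the 4 treatment comparisons, counted from either strand or, where stated, from the sense strand. Filled symbols have an adjusted p below 0.05, circles are called, stars mark the AID-DIvA values of SYCP2, which were not tested, and dashed lines mark a log2 fold change of 1 in either direction. Sense-strand STAG3 lies at 2.09 and 2.16 in U2OS cells and below 0 in AID-DIvA cells.

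By count, 1 of the 10 members (6 tested) was called in each treatment comparison. In the AID-DIvA comparisons it was SYCP2, which was chosen on them, and 2.52% of all tested genes were called lower in WT and 2.56% in ID3-KO cells. In the U2OS comparisons it was MEI1, and 13.6% of all tested genes were called higher in WT and 14.6% in ID3-KO cells. On the sense strand 2 of 10 (6 tested) were called in each comparison. In U2OS cells these were MEI1 and STAG3, of which MEI1 in WT cells was not called without treated replicate 1 (1.07, adjusted p = 0.0586) (background called higher 14.2% in WT and 15.2% in ID3-KO cells), and in AID-DIvA cells SYCP2 and MEI1 (background called higher 4.99% in WT and 5.21% in ID3-KO cells, and called lower 2.66% and 2.71%). Over the 6 members tested the median change was -0.32 in AID-DIvA WT, -0.44 in AID-DIvA ID3-KO, -0.52 in U2OS WT and -0.03 in U2OS ID3-KO cells from either strand, beside medians over all genes of between -0.02 and 0.01. As 4 of 10 members were not tested, these medians describe the readable genes only.

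The response before recovery was set against that after recovery within each genotype. A negative difference means a lower log2 fold change after recovery. Of the 10 members 6 were tested. In WT cells 4 of these 6 differed at an adjusted p below 0.05, against 42.2% of all tested genes, and in ID3-KO cells 4 of 6, against 52.5%. In both genotypes the 4 include SYCP2, so these counts are not an independent result. HORMAD1 differed by 1.06 ± 0.18 in WT (adjusted p = 0.000297) and 0.94 ± 0.30 in ID3-KO cells (adjusted p = 0.0163). STAG3 on the sense strand differed by -2.98 ± 0.35 (adjusted p = 1.49e-05; -2.74 without U2OS WT untreated replicate 1) and -2.53 ± 0.42 (adjusted p = 5.34e-05). SYCP2 differed by -1.15 in WT (-0.90 without U2OS WT untreated replicate 1) and -2.10 in ID3-KO cells, values given without a test because they contain the AID-DIvA contrast that the gene was chosen on. The cell lines differ as well as the stages, and the part of each in these values cannot be told apart.

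Other genes of meiosis were looked at as a list of 44. From either strand, 23 were tested in AID-DIvA WT, 24 in AID-DIvA ID3-KO, 29 in U2OS WT and 25 in U2OS ID3-KO cells. In U2OS WT cells 5 were called higher and 1 lower, against 13.6% and 5.06% of all tested genes, and in U2OS ID3-KO cells 3 higher and 1 lower, against 14.6% and 5.77%. In AID-DIvA WT cells 1 was called higher and 1 lower, against 4.86% and 2.52%, and in AID-DIvA ID3-KO cells 1 higher and 2 lower, against 4.90% and 2.56%. Genes near 0 in untreated cells, such as C11orf85 and TEX15, could enter these counts only as higher. The tested genes of this list had a median change of 0.02 in U2OS WT, -0.17 in U2OS ID3-KO, -0.21 in AID-DIvA WT and -0.23 in AID-DIvA ID3-KO cells.

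C11orf85, the older name of MAJIN, which tethers telomeres to the nuclear envelope in meiosis, was near 0 in untreated cells and read in every treated library. In U2OS WT cells it went from 0.0310, 0.110 and 0.0758 CPM (2, 8 and 4 counts) to 5.26, 5.04 and 5.66 CPM (344, 254 and 430 counts), and in U2OS ID3-KO cells from 0.0582, 0.0169 and 0.0891 CPM to 2.77, 1.89 and 2.12 CPM. In the AID-DIvA libraries titled as treated it was read at 0.883, 0.852 and 0.699 CPM in WT and 0.570, 0.347 and 0.390 CPM in ID3-KO cells, against 0 to 6 counts in those titled as untreated, the same direction as in U2OS cells. It was called higher in all 4 treatment comparisons. It passed the filter on low counts through the treated libraries alone, so that only a rise could be called. The calls are therefore given as a description. No fold is given, since the untreated libraries lay at or near the detection limit. TEX15, a gene of male meiosis, was at 0, 2 and 0 counts in untreated and 91, 49 and 82 counts in treated U2OS WT cells (1.39, 0.972 and 1.08 CPM). The same limit holds for its call there. In U2OS ID3-KO cells TEX15 was at 0 untreated and at 9, 7 and 14 counts treated, which did not pass the filter, and was not tested.

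PRDM9, the methyltransferase that places meiotic breaks, rose before recovery by 1.22 ± 0.20 in U2OS WT (adjusted p = 0.00168) and 1.22 ± 0.22 in U2OS ID3-KO cells (adjusted p = 2.68e-05). After recovery PRDM9 was called lower in AID-DIvA ID3-KO cells, at 9 to 13 counts per treated and 18 to 38 per untreated library (-1.03 ± 0.27, adjusted p = 0.0137), and in AID-DIvA WT cells its change was -0.52 ± 0.34 (adjusted p = 0.234). PIWIL1 is a germ line Argonaute protein and not itself a meiosis gene. In AID-DIvA cells its group means were 0.0660 CPM untreated and 0.0939 after recovery in WT, and 0.223 and 0.169 in ID3-KO form. Before recovery PIWIL1 rose by 3.32 ± 0.38 in U2OS WT and 3.18 ± 0.25 in U2OS ID3-KO cells, given as a description. These folds rest on 5 to 7 counts per untreated WT library and 7 to 12 per untreated ID3-KO library. PIWIL1 passed the filter on low counts through the treated libraries, so that only a rise could be called. C9orf84, the older name of SHOC1, which works in crossover formation, went the other way: it fell from 75.7, 65.9 and 70.4 CPM to 21.0, 17.7 and 18.8 CPM in U2OS WT cells (-1.87 ± 0.10, adjusted p = 5.84e-06) and by -2.30 ± 0.07 in U2OS ID3-KO cells (adjusted p = 9.63e-17). After recovery it was also lower in AID-DIvA WT cells, at 68.8 to 94.5 CPM against 152 to 170 untreated, short of a call. In AID-DIvA ID3-KO cells the libraries overlapped, at 49.4 to 127 CPM treated and 116 to 133 untreated. SGOL2, which protects cohesin at centromeres in meiosis and is also read in dividing somatic cells, fell after recovery, by -1.06 ± 0.06 in AID-DIvA WT (adjusted p = 1.6e-08) and -1.51 ± 0.21 in AID-DIvA ID3-KO cells (adjusted p = 0.000422). In U2OS WT cells it was at 36.9 to 40.9 CPM untreated and 39.1 to 39.8 treated. In U2OS ID3-KO cells it was higher with treatment, at 39.1 to 41.8 CPM untreated and 43.5 to 49.9 treated, short of a call.

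**Figure D5:**
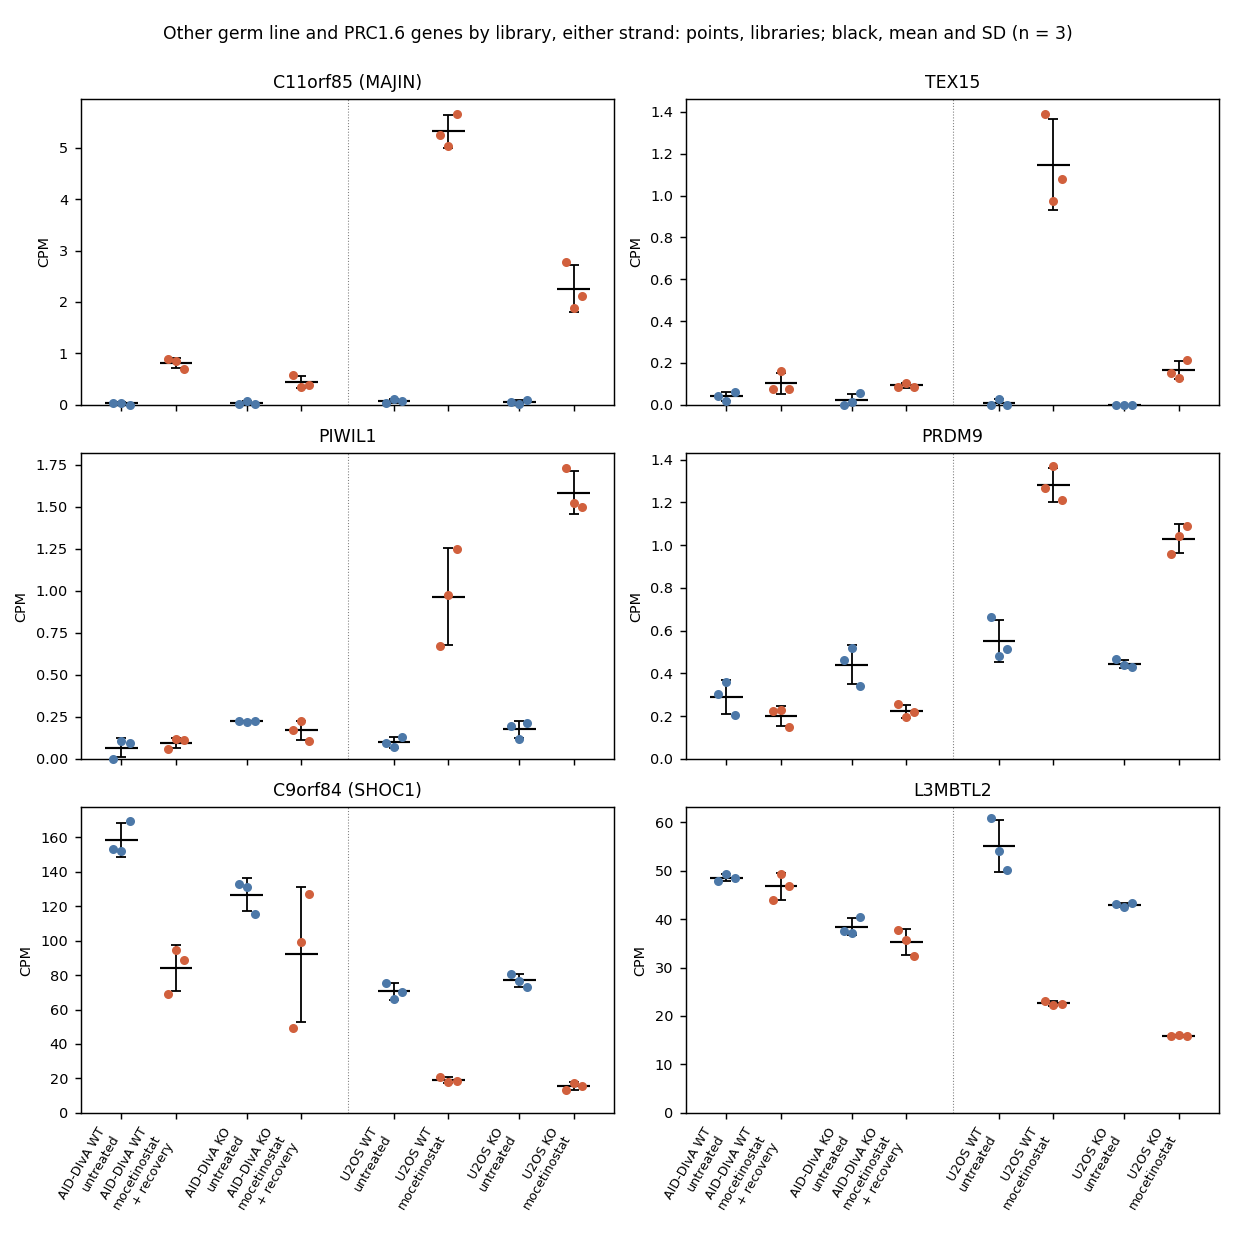
CPM (y axis, either strand) of 6 other germ line and PRC1.6 genes in each of 24 libraries, in 8 groups (x axis), with untreated libraries in blue, mocetinostat-treated libraries in red and the mean and SD (n = 3) in black. C11orf85 (MAJIN) reaches 5.04 to 5.66 CPM in treated U2OS WT cells, and L3MBTL2 and C9orf84 (SHOC1) are lower in treated than in untreated U2OS cells. C9orf84 is also lower in treated than in untreated AID-DIvA WT cells.

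The subunits of PRC1.6, the complex that keeps germ line genes silent, were all tested (12 of 12). L3MBTL2 was the only one called in the 4 treatment comparisons, and in both U2OS comparisons alone. That is 1 of 12 called lower, against 5.06% of all tested genes in U2OS WT and 5.77% in U2OS ID3-KO cells. At an adjusted p below 0.05 alone, some subunits were higher and others lower in both U2OS genotypes. The share of all tested genes that passed this looser threshold is not given here, so no result about the complex is drawn from it. L3MBTL2 fell in U2OS WT cells from 60.8, 54.1 and 50.2 CPM to 23.2, 22.2 and 22.4 CPM (-1.27 ± 0.09, adjusted p = 2.63e-05) and in U2OS ID3-KO cells from 43, 42.5 and 43.3 CPM to 15.8, 16.1 and 15.8 CPM (-1.43 ± 0.05, adjusted p = 9.59e-17). After recovery it stood at 43.9 to 49.4 CPM in AID-DIvA WT cells, against 47.8 to 49.3 untreated, and at 32.4 to 37.7 CPM in AID-DIvA ID3-KO cells, against 37.2 to 40.5 untreated (-0.12 ± 0.07, adjusted p = 0.210).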

How the data were processed

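RNA was sequenced from 24 libraries of U2OS and AID-DIvA cells, 3 per group. The authors prepared stranded total RNA libraries, aligned paired reads to hg19/GRCh37 with STAR and counted fragments per gene with featureCounts, and deposited raw counts for 57820 genes per library, from either strand and for each strand. The paper names annotation v.29 lift 37, while the gene identifiers carry other version numbers. Which strand column holds the sense strand was read from the totals: one column held 93.9% to 94.8% of strand-specific counts in every library. In counts from either strand, fragments that fall on 2 genes are left out, so strand counts of overlapping genes can sum to more. Deposited FPKM and TPM columns were not used.

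Counts were tested in R 4.3.3 with edgeR 4.0.16 (TMM, filterByExpr, robust quasi-likelihood fit, Benjamini-Hochberg over all genes tested), each comparison on its own libraries and interactions on 12. A call needed a log2 fold change beyond 1 and an adjusted p under 0.05, for interactions the latter alone. For errors, each log2 value was divided by the square root of its F statistic. CPM use TMM factors over 24 libraries and, for both strands, the either-strand library size. All 10 members are reported, and 1 further list is not reported here. Of other lists (44 meiosis genes, 12 PRC1.6 subunits, 6 germ cell and 8 osteoblast markers), up to 4 called genes averaging at least 0.5 CPM are named. TUBB4B and the other genes like SYCP2 averaged at least 1 CPM, with 0.1 CPM added before the log. The members and lists were chosen with earlier results of these data known. Steps were tested on simulated counts. Alternatives were DESeq2 1.42.0, its size factors in edgeR, no filter, at least 10 counts in every library, sense-strand counts, all 4 groups of a line in 1 fit, the replicate number as a block and each library left out. DESeq2 and left-out libraries on the sense strand were added after seeing the data.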

Additional observations from a re-analysis of the deposited data

Results flagged for a closer look

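These results were picked out because the response to mocetinostat differed between the AID-DIvA libraries after recovery and the U2OS libraries before it, by the test of the interaction in edgeR (adjusted p below 0.05). Values are log2 fold change after recovery minus before recovery, and stage and cell line cannot be told apart. HORMAD1 gave 1.06 in WT and 0.94 in ID3-KO cells: it fell before recovery, and after it the change did not pass the test in either genotype. STAG3 gave -0.71 in WT (-0.52 without U2OS WT untreated replicate 1) and -0.88 in ID3-KO cells from either strand, and -2.98 and -2.53 on the sense strand. SYCP2 gave -1.15 in WT (-0.90 without that replicate) and -2.10 in ID3-KO cells, and since the gene was chosen on the AID-DIvA libraries this is no independent test. REC8 gave 0.56 in WT cells (0.42 without that replicate, and 0.44 on the sense strand, adjusted p = 0.0918). DMC1 gave -0.63 in ID3-KO cells (adjusted p = 0.0410), which passed 0.05 neither with DESeq2 (-0.59, adjusted p = 0.128) nor without a filter on low counts (-0.60, adjusted p = 0.0687). Among all tested genes 42.2% in WT and 52.5% in ID3-KO cells passed the same test.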

How the results depend on the processing

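The number of members called moved in few settings. On the sense strand it was 2 in place of 1 in all 4 treatment comparisons, and with DESeq2 on the sense strand it was 1 in both AID-DIvA comparisons. With at least 10 counts in every library it was 0 in U2OS ID3-KO cells, because MEI1 was then not tested. Leaving out 1 library, from either strand, it was 1 to 1 in both AID-DIvA treatment comparisons, 1 to 2 in U2OS WT, 0 to 2 in U2OS ID3-KO, 0 to 1 between genotypes in untreated and in treated AID-DIvA and in treated U2OS cells, 0 to 1 for the U2OS interaction, and 3 to 5 (WT) and 3 to 4 (ID3-KO) between stages. On the sense strand it was 1 to 3 in AID-DIvA WT, 1 to 2 in AID-DIvA ID3-KO and 2 to 2 in both U2OS treatment comparisons (in WT without treated replicate 1, HORMAD1 in place of MEI1), and 0 to 1 between genotypes in untreated and in treated AID-DIvA and in treated U2OS cells. Values near 0 changed sign when 1 library was left out: HORMAD1 in AID-DIvA ID3-KO treatment (-0.0061 to 0.41), SYCP2 in U2OS ID3-KO treatment (-0.0375 to 0.11) and SYCP2 between treated AID-DIvA genotypes (-0.28 to 0.22). DESeq2 put the median of all genes at 0.11 in U2OS WT and 0.10 in U2OS ID3-KO treatment, against 0.01 and 0.00, and no member changed direction.

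Same-numbered replicates did not deviate together (correlations from -0.42 to 0.31), so the numbers do not pair the samples. With the replicate number as a block the counts of members called were the same in all 12 comparisons except that between stages in ID3-KO cells, where it was 3 in place of 4 (DMC1, -0.63, adjusted p = 0.0529). Sense counts of SYCP1 and SMC1B were found in 1 of 24 libraries each and those of SPO11 in 0. SYCP3 had sense counts in 20 of 24 libraries, at most 10 per library. Levels below the detection limit could not be seen at these depths.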
